A study of Mus musculus with 6 samples.

Results

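The genes described here encode core subunits of the Polycomb repressive complexes: Ezh1, Ezh2, Eed, Suz12 and Jarid2 of PRC2, and Bmi1, Ring1, Rnf2, Cbx2 and Cbx7 of PRC1. They were chosen by symbol, and all 10 were found among 21887 protein-coding genes of the RefSeq annotation of GRCm38, whose primary chromosomes are those of mm10. Chromatin was profiled by CUT&Tag, in which an antibody tethers a transposase to its target so that nearby DNA is cut and tagged, in B16 cells, a mouse melanoma line. Both libraries used came from wild-type B16 cells, with no treatment named in the labels, and each was a single library: H3K4me3, a histone mark of active promoters, and p300, a histone acetyltransferase found at active enhancers and promoters. The series as a whole has 6 libraries; the other 4, for H3K9me3, were not analysed here. The titles of 3 of these name a knockout of Tdg, of Trp53 or of both, while their genotype label is WT.

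Polycomb proteins keep developmental genes repressed. PRC2 methylates lysine 27 of histone H3 through EZH1 or EZH2, which work only in a complex with EED and SUZ12. PRC1 attaches ubiquitin to histone H2A through RING1 or RNF2, and its CBX subunits can bind the mark that PRC2 leaves. In melanoma, EZH2 is known as a gene that can be mutated or highly expressed. The peaks described here lie at the genes that encode these proteins, and say nothing of where the proteins themselves bind.

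On the nuclear chromosomes the authors listed 27019 H3K4me3 peaks, whose median fold enrichment over background was 6.24, and 6512 p300 peaks, whose median fold was 5.76. Fold and −log10 q are the authors' values for a peak and are compared only within a list. The number of reads at each summit was solved from the deposited fold and −log10 p. H3K4me3 summits held a median of 79 reads and at least 15, and p300 summits a median of 39 and at least 14. Total read numbers are unknown. Where a gene lacks a peak, none was listed at the depth sequenced and over the local background, and a weaker one may have been missed. With 1 library for each antibody there is no replicate error and no test between groups. Intervals given with reads are exact 95% Poisson intervals and cover counting error only. Those with shares are exact 95% binomial (Clopper-Pearson) intervals. They treat the genes or peaks counted as independent draws, although the genes were chosen by symbol, and are a guide to size and not a test. Of Mitf, Sox10, Pmel, Tyr, Tyrp1, Dct and Mlana, markers of the melanocyte lineage, 7 of 7 had an H3K4me3 peak in the gene or within 1 kb, against 58.9% of all protein-coding genes. H3K4me3 was at an end of 6 of them, not of Mlana, against 50.5% of all genes. A p300 peak lay in the gene or within 50 kb for 6, not for Tyr, against 44.2%.

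All 10 core genes carried H3K4me3, and 4 of the 5 PRC2 genes carried p300 at a start. An H3K4me3 peak lay in the gene or within 1 kb of it for 10 of 10 core genes (69.2 to 100%), against 58.9% of all protein-coding genes, and within 50 kb for 10 of 10, against 75.5%. It came within 1 kb of an annotated end for 8 of 10, or 80.0% (44.4 to 97.5%), against 50.5% of all genes, which lies inside the interval. The exceptions were Bmi1 and Cbx7. A p300 peak came within 1 kb of an end of 4 of 10, or 40.0% (12.2 to 73.8%), against 13.5% of all genes, which again lies inside the interval. These 4 were Ezh2, Eed, Suz12 and Jarid2, so that p300 lay at an end of 4 of 5 PRC2 genes and of 0 of 5 PRC1 genes (interval up to 52.2%). The difference between the complexes was not tested. Among genes with H3K4me3 at an end, p300 was at an end of 4 of 8 core genes and of 26.5% of all genes. The counts were lower among stronger peaks. Among H3K4me3 peaks at or above the median fold of the list, 3 of 10 core genes had one at an end (Ezh2, Eed and Suz12), against 34.4% of all genes. Among those at or above the median −log10 q it was 4 of 10, with Cbx2 as the fourth, against 42.3%. Both H3K4me3 counts were near the share of all genes. Among p300 peaks at or above the median fold it was 2 of 10 (Ezh2 and Eed; 2.52 to 55.6%), against 6.93% of all genes, which lies inside the interval.

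**Figure D1:**
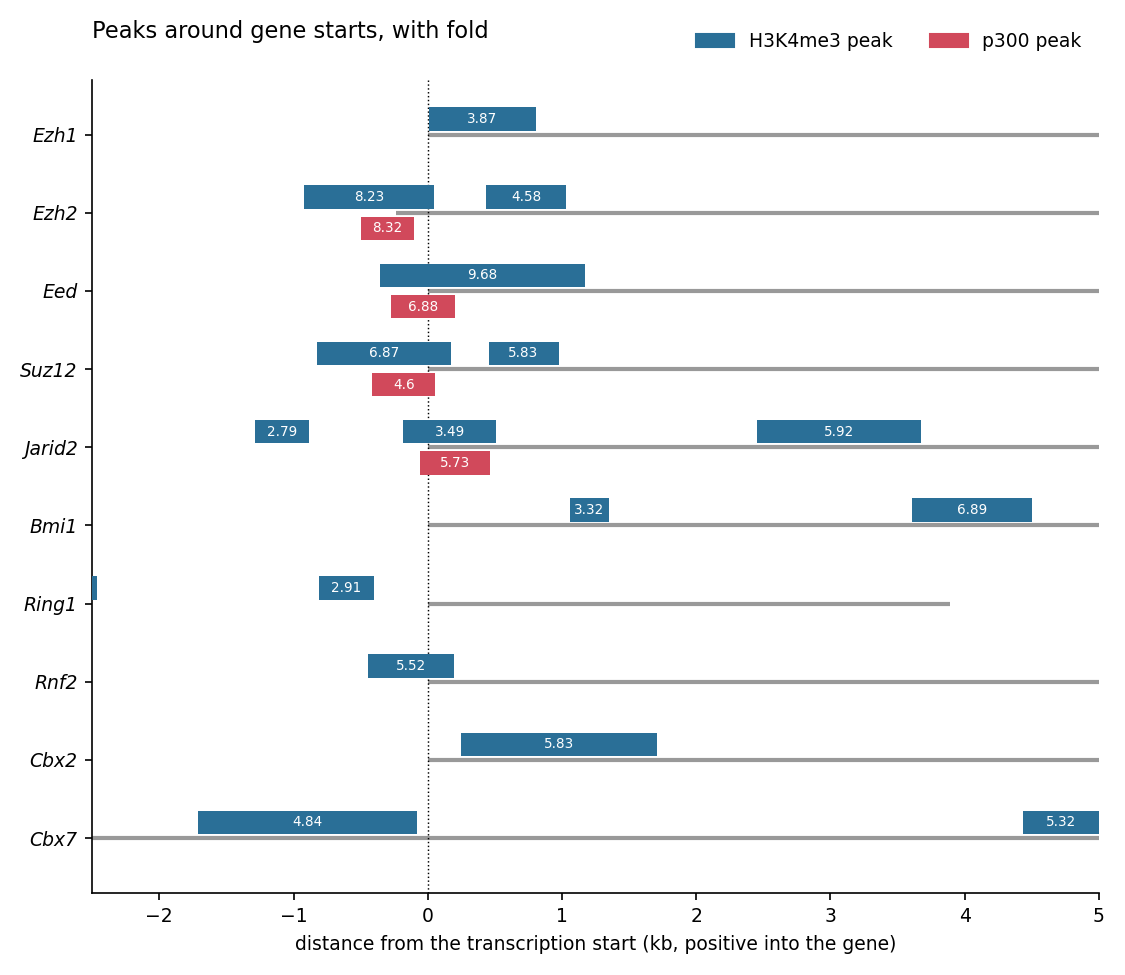
H3K4me3 peaks (blue) and p300 peaks (red) around the starts of the 10 core genes, with the fold of each peak printed on it. The x axis is the distance from the transcription start in kb, positive into the gene, and the grey line is the annotated gene; Cbx2 is drawn from its lower annotated end and Jarid2 from the first of its starts. p300 peaks appear at Ezh2, Eed, Suz12 and Jarid2, with folds of 4.60 to 8.32.

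Ezh2, the methyltransferase of PRC2 in dividing cells (chromosome 6, 47530274 to 47595270), had the p300 peak of highest fold at an end among the core genes, although that of Jarid2 held more reads. The peak was 392 bp wide, ran from 47595135 to 47595526, and had a fold of 8.32, which 91.4% of p300 peaks in the list fell below. Its summit held 45 reads (32.8 to 60.2) over a background of 4.53 and lay at −289 bp from the annotated start. It was wholly inside an H3K4me3 peak of 975 bp and fold 8.23, whose summit held 204 reads (177 to 234), the highest of the H3K4me3 peaks at or inside the core genes. A second H3K4me3 peak began 436 bp downstream of the start, with a fold of 4.58 and 113 reads (93.1 to 136). The intervals of the 2 summits do not overlap, and the upstream peak was the higher. The lncRNA gene F830010H11Rik has an end within 1 kb of all 3 of these peaks, and the marks cannot be assigned to Ezh2 alone. A weaker H3K4me3 peak lay inside the gene, 11322 bp from the start, with a fold of 5.92 and 28 reads (18.6 to 40.5).

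Ezh1, the related methyltransferase that is more prominent in non-dividing cells (chromosome 11, 101191115 to 101226463), was marked more weakly. Its H3K4me3 peak of 796 bp began 10 bp inside the start and had a fold of 3.87, above 12.3% of the list, with 68 reads (52.8 to 86.2) over a background of 16.8. No p300 peak came within 1 kb. Both the fold and the summit reads were below those of the upstream Ezh2 peak, and the read intervals do not overlap.

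Eed, which encodes the subunit that reads methylated H3K27 and stimulates the enzyme (chromosome 7, 89954654 to 89980976), had the highest H3K4me3 fold at an end among the core genes. The peak was 1525 bp wide, wider than 90.7% of the list, with a fold of 9.68 and 165 reads (141 to 192). A p300 peak of 482 bp and fold 6.88, with 33 reads (22.7 to 46.3), lay across the start, and the summits of both marks were 6 bp apart. No other gene of the annotation has an end within 1 kb of these peaks.

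Suz12, which encodes the scaffold subunit of PRC2 (chromosome 11, 79993106 to 80034123), had H3K4me3 on both sides of its start. The first peak, of 996 bp and fold 6.87, covered the start, and a second of 523 bp and fold 5.83 began 453 bp into the gene. Their summits held 109 reads (89.5 to 131) and 92 reads (74.2 to 113), with intervals that overlap. The p300 peak at the start was the weakest of the 4, with a fold of 4.60, above 18.8% of its list, and 26 reads (17.0 to 38.1).

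Jarid2, an accessory subunit that helps to bring PRC2 to its targets (chromosome 13, 44730774 to 44921643), had the most H3K4me3 peaks of the core genes, 7 in the gene or within 1 kb, over the longest gene of the set at 190870 bp. The peaks at the start were weak in fold, 2.79 and 3.49. They were not poor in reads, with 87 (69.7 to 107) and 112 (92.2 to 135), but lay on backgrounds of 30.6 and 31.4 reads, above the upper quartile of the list of 19.7. A p300 peak of 525 bp and fold 5.73, with 54 reads (40.6 to 70.5), covered the first of the 2 annotated starts and most of the sequence up to the second. The strongest H3K4me3 peak near the start began 1954 bp beyond the second start, with a fold of 5.92 and 182 reads (157 to 210), and had no p300 peak.

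A site deep inside Jarid2 stood out in fold for both marks, over a low background. An H3K4me3 peak from 44869568 to 44869993, 138297 bp from the nearer start, had a fold of 16, higher than 99.8% of the list, with 88 reads (70.6 to 108) over a background of 4.55. It was only 426 bp wide. A p300 peak of 380 bp lay wholly inside it, with a fold of 9.10, above 95.5% of its list, and 41 reads (29.4 to 55.6). By −log10 q the H3K4me3 peak was above 83.6% of its list and the p300 peak above 75.7%. The reads at both summits were near the medians of the lists, 79 and 39. The summits fell on the same base, as they did for 187 of 5568 p300 peaks that overlap H3K4me3 (3.36%). In the list, 53 H3K4me3 peaks had a fold at least as high, and 26 of these were no wider, with this peak included in both counts. No other annotated gene overlaps the site or has an end within 1 kb of it.

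Among the PRC1 genes, Rnf2, which encodes the main E3 ligase RING1B (chromosome 1, 151469398 to 151500991), was marked across its start by 638 bp of H3K4me3, with a fold of 5.52 and 56 reads (42.3 to 72.7). Ring1, its paralogue (chromosome 17, 34020792 to 34024680), had no peak over the start itself. The nearest began 402 bp upstream, was 411 bp wide and had a fold of 2.91, above 3.20% of the list. Its summit held 113 reads (93.1 to 136), more than that of Rnf2, over a background of 38.2 against 9.32 at Rnf2, so that the order of the genes depends on whether reads or fold are compared. The microRNA genes Mir219a-1 and Mir219c and the protein-coding gene H2-Ke6 also have an end within 1 kb of the Ring1 peak.

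Bmi1, which encodes a partner of the RING proteins in canonical PRC1 (chromosome 2, 18677018 to 18686629), was the only one of the 9 core genes with a tabulated start that had no H3K4me3 within 1 kb of it. The nearest peak began 1058 bp inside the gene, just beyond the window of 1 kb, and had a fold of 3.32 and 70 reads (54.6 to 88.4). A stronger one began 3610 bp inside, with a fold of 6.89 and 125 reads (104 to 149). With a window of 2 kb Bmi1 would be counted, and the count would be 9 of 10. Of the peaks counted, the one nearest to the limit of the window was that 883 bp upstream of Jarid2.

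Cbx2 and Cbx7 encode chromodomain proteins of canonical PRC1. Cbx2 (chromosome 11, 119023019 to 119031275) carried 1467 bp of H3K4me3 that began 245 bp above its lower end, with a fold of 5.83 and 113 reads (93.1 to 136). The lncRNA gene Gm35829 has an end there as well. Cbx7 (chromosome 15, 79915804 to 79971143, minus strand) had none at an annotated end, but its annotated start at 79932646 lies inside the annotated gene. The start is 16842 bp above the lower end, the 3′ end on this strand, which is the nearer of the ends. Measured from that start, an H3K4me3 peak of 1628 bp began 83 bp upstream, with a fold of 4.84 and 116 reads (95.9 to 139). A wider peak of 2370 bp, wider than 99.2% of the list, lay 17498 bp upstream of the start, still inside the annotated gene, with a fold of 5.55 and 126 reads (105 to 150). Counted at starts, 8 of the 9 core genes in the table of starts had H3K4me3 within 1 kb, against 52.8% of all genes in that table, and 4 of 9 had p300, against 14.4%.

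The promoters of the core genes were compared in sequence with those of all protein-coding genes. RefSeq sequences of 300 bases, 250 before and 50 after a start on GRCm38.p6, were matched for 9 of the 10 genes, with 2 starts for Jarid2. All 10 promoters held many CpG dinucleotides, 17 to 41 with a median of 27, against a median of 13 and quartiles of 4 and 24 over 21263 promoters. Of the genes with a promoter of at least 17 CpGs, the lowest value of the core genes, 84.4% had H3K4me3 at a start and 24.4% had p300, against 26.0% and 5.94% of genes with fewer. The limit of 17 was taken from the core genes. CpG content did not order the core genes by p300: Eed, with p300, had the fewest CpGs at 17, Suz12, also with p300, the most at 41, and Ring1, without it, had 37.

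**Figure D2:**
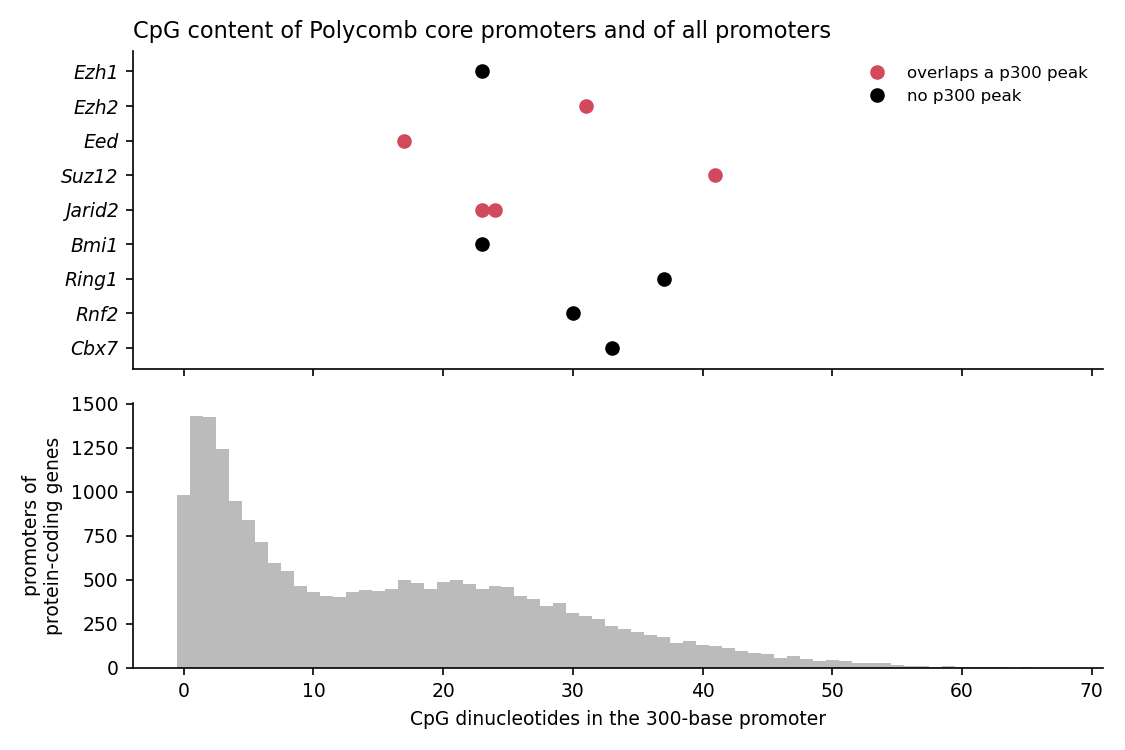
CpG dinucleotides in the 300-base promoters of 9 core genes (upper panel, 1 point for each annotated start, red where the promoter overlaps a p300 peak) and in all promoters of protein-coding genes (lower panel). The core genes lie between 17 and 41, and promoters with and without p300 are mixed along the axis.

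Shown here are the promoters of the 4 genes with a p300 peak at the start, with Jarid2 given at its second start, where p300 covered more bases, and the promoter of Bmi1, which had no peak of either mark. Each is written 5′ to 3′ on the strand of the gene, and base 251 is the annotated start. Capitals mark matches, on either strand, to CCAAT of NF-Y, to GGGCGG of the GC box, to the E-box CACGTG, or to the E2F words TTTCGCGC or TTTGGCGC or TTTCCCGC.
Ezh2, chr6:47594981-47595280, minus strand: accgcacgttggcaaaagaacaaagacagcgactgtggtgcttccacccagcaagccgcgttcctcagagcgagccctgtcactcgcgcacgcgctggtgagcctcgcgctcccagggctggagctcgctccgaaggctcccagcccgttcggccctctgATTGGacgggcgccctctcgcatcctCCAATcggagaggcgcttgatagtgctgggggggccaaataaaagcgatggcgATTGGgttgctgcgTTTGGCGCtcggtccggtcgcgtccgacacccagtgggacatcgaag
Eed, chr7:89980927-89981226, minus strand: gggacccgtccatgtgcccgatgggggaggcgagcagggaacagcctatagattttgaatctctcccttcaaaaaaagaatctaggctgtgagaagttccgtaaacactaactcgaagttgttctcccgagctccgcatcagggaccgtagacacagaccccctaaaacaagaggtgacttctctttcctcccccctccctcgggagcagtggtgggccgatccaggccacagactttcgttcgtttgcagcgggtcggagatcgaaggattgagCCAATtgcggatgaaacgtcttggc
Suz12, chr11:79992856-79993155, plus strand: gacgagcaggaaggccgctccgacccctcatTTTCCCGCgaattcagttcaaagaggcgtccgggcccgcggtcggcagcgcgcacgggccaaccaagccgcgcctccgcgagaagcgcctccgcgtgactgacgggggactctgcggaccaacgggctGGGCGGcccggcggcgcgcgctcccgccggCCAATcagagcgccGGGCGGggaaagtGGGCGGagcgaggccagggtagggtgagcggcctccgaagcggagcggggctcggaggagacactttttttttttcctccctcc
Jarid2, chr13:44731021-44731320, plus strand: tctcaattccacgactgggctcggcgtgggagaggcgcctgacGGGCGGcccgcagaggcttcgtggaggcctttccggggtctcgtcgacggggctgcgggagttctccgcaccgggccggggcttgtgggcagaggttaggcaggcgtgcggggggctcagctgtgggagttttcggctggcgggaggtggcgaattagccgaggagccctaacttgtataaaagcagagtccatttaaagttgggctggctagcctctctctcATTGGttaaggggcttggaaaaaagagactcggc
Bmi1, chr2:18676768-18677067, plus strand: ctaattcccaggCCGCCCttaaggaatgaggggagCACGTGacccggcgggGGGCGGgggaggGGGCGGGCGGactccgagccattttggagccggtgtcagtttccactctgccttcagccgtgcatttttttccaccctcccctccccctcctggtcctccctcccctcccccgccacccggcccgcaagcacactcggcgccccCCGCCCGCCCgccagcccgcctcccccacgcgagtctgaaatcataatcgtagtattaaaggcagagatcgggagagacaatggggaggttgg

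The p300 peaks covered 300 of the 300 bases at Eed and Suz12, 146 at Ezh2, and 217 at the second and 111 at the first start of Jarid2. E2F words, bound by the factors that switch on S-phase genes, were found in the promoters of Ezh2 (at 4, with the start as 1) and Suz12 (at −219), that is in 2 of 10 core promoters and 2.41% of all promoters. CCAAT was found in 6 of 10 core promoters, 3 times in Ezh2 (at −90, −64 and −11), and in 38.2% of all. It was present in each of the 5 promoters of the genes with p300 at the start, and in Cbx7 without it. The GC box was found in 7 of 10 and in 46.2% of all, with 6 matches in Bmi1, among which 2 pairs overlap. Bmi1 alone of the core genes held an E-box, at −215, a word found in 7.84% of all promoters. The ETS word CCGGAAG, the NRF1 core GCATGCG, the YY1 word AAGATGGC and the AP-1 word TGANTCA were in 0 of 10 core promoters and in 11.6%, 4.44%, 3.05% and 6.99% of all. A match is a word in the sequence and not evidence of binding.

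p300 was found in the gene or within 50 kb of it for 9 of 10 core genes, or 90.0% (55.5 to 99.7%), against 44.2% of all protein-coding genes, below the interval. Among genes with H3K4me3 at an end it was 8 of 8 core genes (63.1 to 100%), against 62.8% of all, only just below the interval. The median number of p300 peaks in this range was 1 for the core genes and 0 for all genes. Within 20 kb the count was 8 of 10, Rnf2 dropping out, and the share of all genes at this reach was not counted. The core gene with none within 50 kb was Cbx7, whose nearest p300 peak lay 112442 bp away with a fold of 3.82. In all there were 16 p300 peaks, 4 at an end, 1 inside a gene and 11 in the flanks. The core genes had a median of 2 other protein-coding genes within 50 kb, against 3 for all genes, and Ezh1 had 7 and Ring1 had 5. Their median length was 33471 bp, against 17169 bp for all genes, and the part of length in these counts was not tested.

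**Figure D3:**
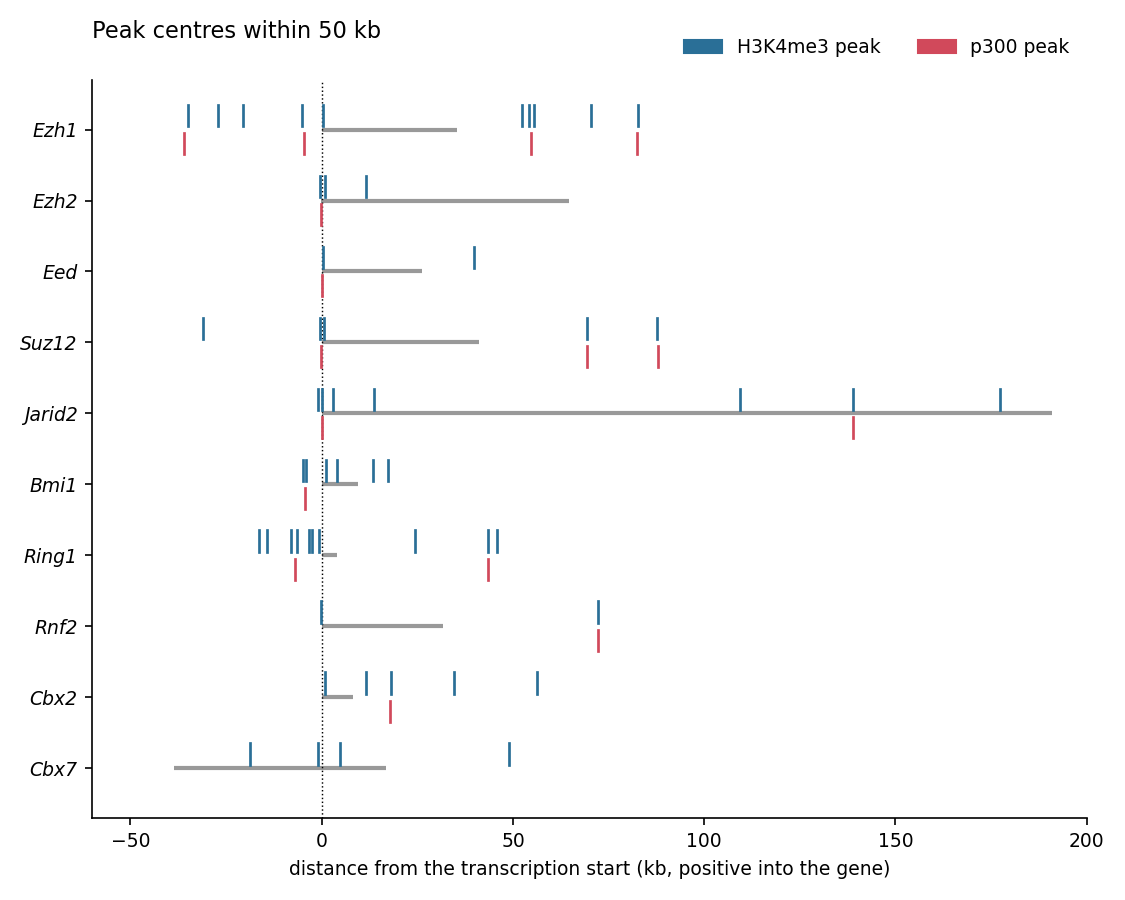
Centres of H3K4me3 peaks (blue ticks) and p300 peaks (red ticks) in and within 50 kb of each core gene, by distance from the transcription start in kb (Cbx2 from its lower annotated end, Jarid2 from the first of its starts), with the annotated gene in grey. Each of the 16 p300 ticks stands with a blue tick, Ezh1 has 4 p300 peaks and Cbx7 has 0.

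Some of the flanking p300 peaks lay at other genes. Of the 11, 6 were 1 kb or less from where another protein-coding gene ends or begins. In the whole list, 2445 of 6512 p300 peaks were at protein-coding ends. The share among peaks that flank genes in general was not counted. The p300 peak 4097 bp upstream of Bmi1, of fold 6.57 and 33 reads (22.7 to 46.3), lay across an end of Commd3 and of the lncRNA gene Gm33355. The peak near Cbx2, of fold 4.76 and 39 reads (27.7 to 53.3), lay 9339 bp away at Cbx8, another CBX gene of PRC1. The peak 40565 bp from Rnf2, of fold 4.62 and 20 reads (12.2 to 30.9), lay at ends of Swt1 and Trmt1l, and one of the peaks near Ring1, of fold 3.71, at Slc39a7 and Rxrb. Such peaks cannot be assigned to the core gene from position alone.

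Suz12 had the strongest p300 peak near any core gene. It ran from 80062183 to 80062953, 28060 bp beyond the far end of Suz12 and inside Crlf3, a cytokine receptor-like gene, with a fold of 11.9, above 99.5% of the list, and 206 reads (179 to 236) over a background of 16.4. It overlapped an H3K4me3 peak of fold 9.42 and 329 bp. A second peak at an end of Crlf3, 46612 bp away, had a fold of 7.07 and 56 reads (42.3 to 72.7). The p300 summit at the start of Suz12, with 26 reads (17.0 to 38.1), was lower than both, with intervals that do not overlap.

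Ezh1 had the most p300 peaks within 50 kb, 4, although none lay at its ends. The nearest, 4417 bp upstream of the start, had a fold of 4.01 and 25 reads (16.2 to 36.9), and was wholly inside an H3K4me3 peak of fold 5.94 where the annotation has no gene end within 1 kb. The others lay 18755, 35674 and 46768 bp away with folds of 4.29, 4.84 and 5.34, the first of them at Plekhh3 and Ccr10. All 4 were below the median fold of the list. Ring1 had a p300 peak of fold 6.75 and 106 reads (86.8 to 128) at the lncRNA gene AA388235, 39052 bp away. No p300 peak was listed between 50 and 70 kb from a core gene.

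**Figure D4:**
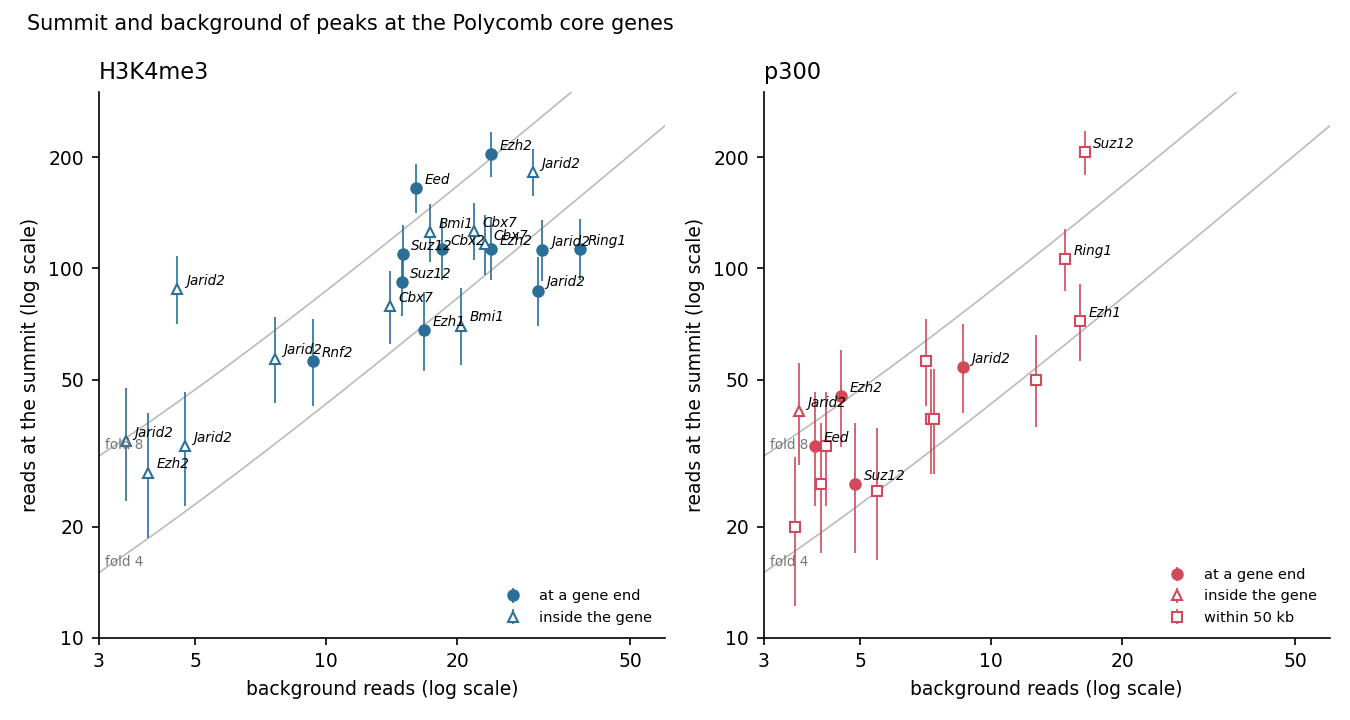
Reads at the summit against background reads, both on log scales, for the H3K4me3 peaks at or inside the core genes (left) and all p300 peaks within 50 kb (right), with 95% Poisson intervals and grey lines of equal fold. H3K4me3 peaks of Jarid2 and Ring1 at gene ends sit at backgrounds above 30 reads, and the Suz12 p300 peak of 206 reads stands above the rest.

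Each of the 16 p300 peaks overlapped an H3K4me3 peak (79.4 to 100%), against 85.5% of the whole p300 list, which lies inside the interval. In 14 of them the p300 summit lay inside the H3K4me3 peak, and in 14 at least 50% of the p300 peak was covered. The share of the whole p300 list by either of these measures was not counted. The distance between the summits was 0 to 840 bp with a median of 79.5 bp, against a median of 152 bp for all overlapping pairs. The order of strength among the 4 p300 peaks at the starts was Ezh2, Eed, Jarid2, Suz12 by fold. By reads it was Jarid2 with 54, Ezh2 with 45, Eed with 33 and Suz12 with 26, and neighbours in that order had overlapping intervals. The interval of Jarid2 (40.6 to 70.5) lay above that of Suz12 (17.0 to 38.1).

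Where an H3K4me3 peak lay at an end, the strongest of each gene had a median fold of 5.68 over 8 core genes and of 7.28 over 11045 protein-coding genes, and the widest a median width of 886 bp against 1130 bp. For p300 the medians were 6.31 over 4 core genes and 5.80 over 2957 genes. Only Ezh2 and Eed had H3K4me3 at an end above the median of all genes. Among the genes with the profile most like that of Ezh1, by Euclidean distance over 6 standardised measures of both marks, were Kctd11 (distance 0.0363) and Sv2a (0.105), each with 4 p300 peaks within 50 kb and none at an end. Those most like Eed were Ncoa4 (0.0256) and the genes Asb7 and Lins1 on chromosome 7, which had the same values (0.0296).

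A wider Polycomb list holds 39 genes for further subunits and for enzymes that remove the Polycomb marks. H3K4me3 was at an end of 30 of 39, or 76.9% (60.7 to 88.9%), against 50.5% of all genes, which lies below the interval. p300 was at an end of 6, or 15.4% (5.86 to 30.5%), against 13.5%. It was in the gene or within 50 kb for 18, or 46.2% (30.1 to 62.8%), against 44.2%. Both p300 shares were near those of all genes. Of the 8 further PRC2 genes, 8 had H3K4me3 at an end (63.1 to 100%) and 1 had p300 there (0.316 to 52.7%). This 1 was Rbbp4, a histone-binding subunit, with a fold of 6.23. Of the 25 further PRC1 genes, 17 had H3K4me3 (46.5 to 85.1%) and 3 had p300 (2.55 to 31.2%) at an end. For both groups the shares of all genes were the same 50.5% and 13.5%. The difference between the lists was not tested.

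In that list the highest H3K4me3 folds at an end were those of Kdm6a, an H3K27 demethylase, at 9.30, of the related PRC1 genes Yaf2 and Rybp at 9.26 and 9.11, and of L3mbtl2 at 8.84. After Rbbp4, the highest p300 folds were at Asxl2, part of the H2A deubiquitinase, at 5.75, Pcgf2, the paralogue of Bmi1, at 5.30, and Kdm6b, another H3K27 demethylase, at 5.28. The peak of Pcgf2 was not within 1 kb of an annotated start. The 9 genes without H3K4me3 at an end were Asxl3, Bcorl1, Mga, Pcgf5, Scml2, Scml4, Sfmbt1, Sfmbt2 and Usp7, and all of them except Asxl3 and Sfmbt2 had it elsewhere in the gene. For 4 of the 9 it lay within 1 kb of an annotated start inside the gene, with folds of 12.8 at Mga, 12.7 at Scml2, 6.98 at Pcgf5 and 4.12 at Usp7, the first 2 above the fold of Kdm6a. Counted at starts, H3K4me3 was found at 88.9% of the core genes (51.8 to 99.7%) and at 28 of the 31 genes of this list with a tabulated start, or 90.3% (74.2 to 98.0%). For p300 at starts it was 44.4% of the core genes (13.7 to 78.8%). In this list it was 3 of the 31, or 9.68% (2.04 to 25.8%), against 14.4% of all genes.

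The complexes that deposit H3K4 methylation are known to counteract Polycomb. Of 18 of their genes, 17 had H3K4me3 at an end (94.4%, 72.7 to 99.9%), against 50.5% of all genes. At an end of 4 there was p300 (22.2%, 6.41 to 47.6%), against 13.5%. For 13, p300 was in the gene or within 50 kb (72.2%, 46.5 to 90.3%), against 44.2%, below the interval as for the core genes. Among genes with H3K4me3 at an end it was 12 of 17 (70.6%, 44.0 to 89.7%), against 62.8% of all, inside the interval. The highest H3K4me3 folds at an end were those of Psip1 at 10.1, Ncoa6 at 9.68, Paxip1 at 9.12 and Wdr5 at 7.71. Ncoa6 had no H3K4me3 within 1 kb of an annotated start. Dpy30 had none at an end, although one of fold 8.79 lay at its annotated start. p300 was at an end of the methyltransferase genes Kmt2c with a fold of 7.47, Kmt2a with 5.45 and Kmt2b with 4.62, and of Pagr1a with 3.83. Kmt2d had none at an end, but one of fold 5.54 lay within 1 kb of its annotated start. The intervals of the core genes and of these genes overlap for each of these shares.

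**Figure D5:**
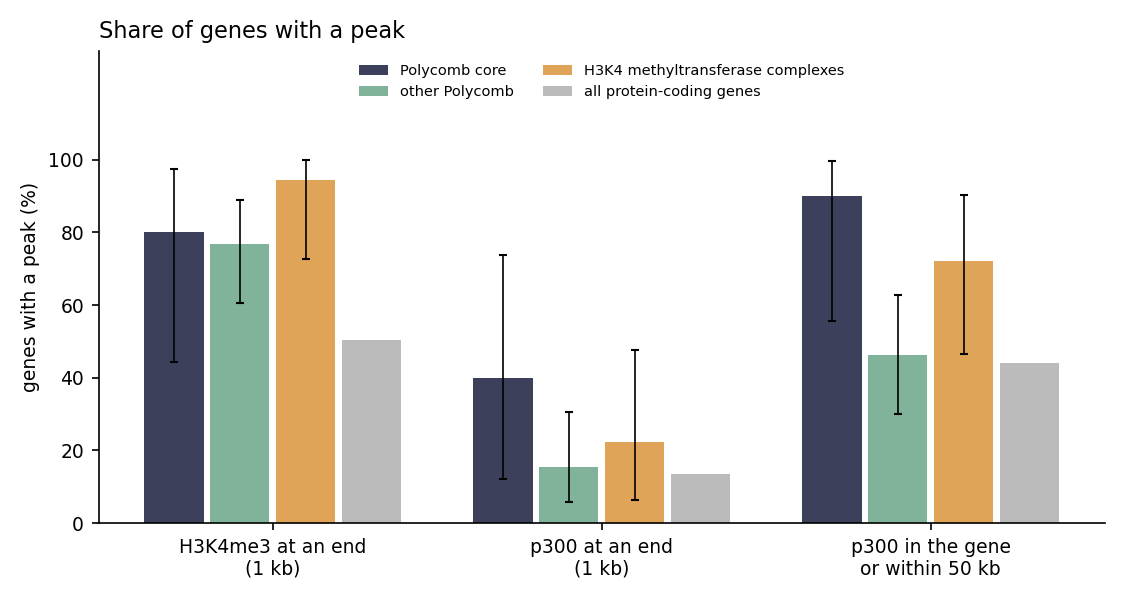
Share of genes with a peak, in percent, for the 10 core genes, the 39 other Polycomb genes, the 18 H3K4 methyltransferase complex genes and all protein-coding genes, with exact 95% binomial intervals on the lists. The core genes stand at 80.0%, 40.0% and 90.0% for the 3 measures, against 50.5%, 13.5% and 44.2% for all genes.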

How the data were processed

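CUT&Tag libraries of wild-type B16 cells were grouped by title. Reactions took 1 µg of antibody and 18 PCR cycles, and reads were paired and 150 bp long, per the labels' protocols. The submitters' processing notes list the build mm10 and the tools Picard 2.22.4, deepTools, Bowtie2 2.2.5 and Trim Galore, without their roles. Not given in the sources used here are the peak caller, any control library, pooling and the handling of duplicate reads. For H3K4me3 and for p300, 1 narrowPeak list each was used as the authors deposited it. Its deposited fold enrichment is a ratio of summit to background, its −log10 p and −log10 q rate the same summit, and the deposited score is the whole part of 10 times −log10 q for nearly all peaks. Other deposited columns give the position.

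Peaks on the nuclear chromosomes were kept, which left out 24 of 27043 H3K4me3 and 17 of 6529 p300 peaks. A peak was at an end when 1 kb or less separated it from the lower or upper end of the annotated gene, inside when between the ends, and flanking up to 50 kb. Overlap meant at least 1 bp. Reads at a summit were whole numbers for which a Poisson tail matched −log10 p within 0.002, found for 99.99% of H3K4me3 and 100.0% of p300 peaks tried. This step was checked on simulated data. It assumes the fold is (reads + 1) over (background + 1), and whether a read is a fragment is not stated. Genes, starts and promoters came from RefSeq (GRCm38.p6). Calculations used Python with numpy 2.4.6, pandas 2.3.3, scipy 1.17.1 and matplotlib 3.10.9. Core genes and lists were chosen with earlier results of these data known. Named are all core genes, up to 4 genes a list with the highest fold, those without H3K4me3 at an end, and the genes nearest in profile to Ezh1 and Eed. One gene that this rule names among those most like Ezh1 is not reported here.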

Additional observations from a re-analysis of the deposited data

How the results depend on the processing

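Of 18 alternatives over 4 counts, 15 stayed within 1.5 times the value reported and 3 did not. The count of core genes with H3K4me3 at an end was 8, and it became 3 among peaks at or above the median fold of the list and 4 among peaks at or above the median −log10 q. The count with p300 at an end was 4, and it became 2 among peaks at or above the median fold. These alternatives keep fewer peaks by construction. With windows of 500 bp or 2 kb, with the summit in place of the peak, or at annotated starts, p300 was at the same 4 genes. No paired analysis was possible because each antibody has 1 library and no test was made. Leaving out a replicate was not possible for the same reason.

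The lowest summits anywhere in the lists held 15 reads for H3K4me3 and 14 for p300. Depth and local background both limit what is listed, so weaker peaks at the genes without one may have been missed. Fold depends on the local background, which was high near Ring1 and the start of Jarid2. Gene ends do not separate starts from 3′ ends, and a peak at an end shared with a neighbour cannot be assigned to one of them.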
